A study of Homo sapiens with 9 samples.

Results

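The genes described here encode the subunits of the oxidative phosphorylation system. They were measured in MOLM-13, an established human line of monocytic acute myeloid leukaemia. They were chosen by gene symbol alone: the NDUF subunits of complex I, SDHA to SDHD of complex II, the UQCR genes of complex III, COX4 to COX8 of complex IV, the ATP5 genes of complex V, and the mitochondrially encoded MT-ND, MT-CYB, MT-CO and MT-ATP genes. The table held 102 such genes of 56541, of which 89 are nuclear and 13 lie on the mitochondrial genome. Another 145 matching symbols were left out as numbered pseudogenes, antisense or divergent transcripts. MT-ATP6 and MT-ATP8 were kept although their symbols also end in P and a digit.

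Oxidative phosphorylation moves electrons from NADH and succinate through complexes I to IV of the inner mitochondrial membrane to oxygen, and complex V, the ATP synthase, uses the resulting proton gradient to make ATP. Mitochondrial DNA encodes a small set of hydrophobic subunits of complexes I, III, IV and V, which are transcribed and translated inside the organelle. All subunits of complex II and most of the others are encoded in the nucleus, translated in the cytosol and imported. Leukaemic myeloid cells are known to depend on this system for energy.

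There were 3 groups of 3 libraries, all from cells given doxycycline at 200 ng/µL for 4 days. The shCONTROL group was RNA-seq of cells carrying a control hairpin. The shBCLAF1 group was RNA-seq too, and its cells carried a hairpin that targets BCLAF1, a nuclear protein linked to RNA processing. The RIP group was RNA co-precipitated with BCLAF1 out of shCONTROL cells, so its reference was the shCONTROL RNA-seq. No mock precipitation was analysed here, and a RIP difference is therefore a difference from whole-cell RNA. The hairpin sequence and whether the lines were clones are not given in the sources used here. The labels do not say that replicates were separate cultures, so p-values measure only the spread between these libraries.

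Totals ran from 25819144 to 36635268 estimated counts per library, which puts 3 counts at 0.0789 to 0.118 CPM (counts scaled to the library total). BCLAF1 RNA was at 322 ± 8.41 CPM with the control hairpin (here and below ± is the SD over n = 3 libraries), 113 ± 12.5 with the BCLAF1 hairpin and 1080 ± 59.4 after precipitation, so the knockdown left 35.1% of its RNA. Of 7 markers fixed for this line, all were detected, among them PTPRC, CD33 and SPI1. Among markers of other cell types, CD3E, HBB, EPCAM, COL1A1 and ALB were at 0 in every library, while PECAM1 (187 CPM in shCONTROL), which some myeloid cells also express, was not. The summed level of the 7 line markers was 1691 to 1778 CPM in shCONTROL and 3436 to 3902 in shBCLAF1, mostly LYZ, and their part in the results below was not tested.

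Of the 102 genes, 96 had a count in at least 1 library, and 95 passed the filter on low counts in both comparisons (82 nuclear and 13 mitochondrial). The genes that did not were the tissue isoforms COX4I2, COX6A2, COX6B2, COX7B2 and COX8C, the read-through gene ATP5MF-PTCD1, and COX8BP, a pseudogene that the symbol rule let through. The first 6 were at 0 in every library. Among the 82 nuclear genes tested, the mean level in shCONTROL ran from 0.811 to 699.0 CPM with a median of 61.1, and ATP5F1B, the catalytic beta subunit of the ATP synthase, was the highest.

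The promoters of nuclear subunit genes are known for sites of NRF1 and of the ETS family factor GABP, regulators of mitochondrial biogenesis. RefSeq (GRCh38.p14) gave a promoter for 67 of the 82 nuclear genes tested, and the 250 bases before the start were searched on both strands for GCATGCGC (NRF1 core), CCGGAAG (ETS and GABP core) and AAGATGGC (YY1 core). The NRF1 core was present in 19.4% of the 67, against 3.22% of all 27305 promoters and 5.82% of those of genes tested after knockdown. The ETS core was present in 26.9%, against 10.2% of all promoters and 19.8% of those of genes tested. An NRF1 core occurred in 3 of 16 matched subunit genes that rose after knockdown (18.8%) and in 10 of the other 51 (19.6%). An ETS core occurred in 4 of the 16 (25%) and in 14 of the 51 (27.5%). The YY1 core was in 1 of the 67 (1.49%), against 1.64% of all promoters and 2.43% of those of genes tested. A match is a run of letters, not a measured site. Among the promoters that could be printed, those of 6 genes that rose after BCLAF1 knockdown carry a match. Given here are both with an NRF1 core and, of the 4 with an ETS core (COX6B1, NDUFB7, ATP5PD and NDUFA13), the 1 whose change had the smallest p. Matches are in capitals, and each sequence ends at the base before the annotated start. NDUFB4, an accessory subunit of complex I (chr3:120596086-120596335, plus strand), has a pair of overlapping NRF1 matches at -159 and -157. ATP5ME, the e subunit of the ATP synthase (chr4:674277-674526, minus strand), has an NRF1 match at -78. COX6B1, of complex IV (chr19:35648073-35648322, plus strand), has an ETS match at -12.
NDUFB4: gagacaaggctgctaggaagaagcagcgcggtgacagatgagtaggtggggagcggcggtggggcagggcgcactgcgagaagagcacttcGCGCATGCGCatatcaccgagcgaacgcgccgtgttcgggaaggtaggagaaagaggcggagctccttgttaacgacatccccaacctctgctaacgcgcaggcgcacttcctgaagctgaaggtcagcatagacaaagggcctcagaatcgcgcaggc
ATP5ME: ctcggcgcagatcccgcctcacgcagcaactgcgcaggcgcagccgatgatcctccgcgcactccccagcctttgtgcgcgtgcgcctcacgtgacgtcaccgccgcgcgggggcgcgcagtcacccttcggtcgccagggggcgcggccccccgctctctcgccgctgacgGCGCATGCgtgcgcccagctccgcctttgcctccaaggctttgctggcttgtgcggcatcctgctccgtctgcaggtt
COX6B1: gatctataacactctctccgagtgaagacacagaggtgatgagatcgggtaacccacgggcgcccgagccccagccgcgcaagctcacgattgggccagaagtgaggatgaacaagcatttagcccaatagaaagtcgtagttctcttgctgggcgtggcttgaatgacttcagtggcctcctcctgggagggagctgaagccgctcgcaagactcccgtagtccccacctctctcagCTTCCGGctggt

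Summed over each class, both mitochondrially encoded and nuclear subunit mRNAs took a smaller share of the counts in the RIP than in RNA-seq. The 13 mitochondrial mRNAs took 2.795%, 2.602% and 2.899% of all counts in the shCONTROL libraries (replicates 1 to 3, as in all lists of values here). They took 2.677%, 3.523% and 2.702% after knockdown. The RIP libraries gave them 0.342%, 0.3263% and 0.1994%. Every RIP library lay far below every RNA-seq library, and shBCLAF1 replicate 2 lay above all others. The 89 nuclear genes together took 0.7816%, 0.7449% and 0.7728% in shCONTROL and 0.8749%, 0.8468% and 0.8672% after knockdown. The RIP libraries gave them 0.4329%, 0.3553% and 0.5203%. The 3 groups did not overlap in this share, with shBCLAF1 highest and the RIP lowest.

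The ratio of mitochondrial to nuclear subunit counts averaged 3.607 ± 0.132 for shCONTROL, 3.445 ± 0.62 for shBCLAF1 and 0.6973 ± 0.279 for RIP libraries. In shBCLAF1 it was 3.06, 4.16 and 3.116, so replicates 1 and 3 lay below the shCONTROL range of 3.493 to 3.751 and replicate 2 above it. Among RIP libraries it was 0.7901, 0.9186 and 0.3833, below every RNA-seq library. With 3 against 3, an exact two-sided permutation test cannot go below p = 0.1. For the knockdown libraries, bulk RNA cannot tell the number of mitochondria per cell from the amount of RNA per mitochondrion.

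**Figure D1:**
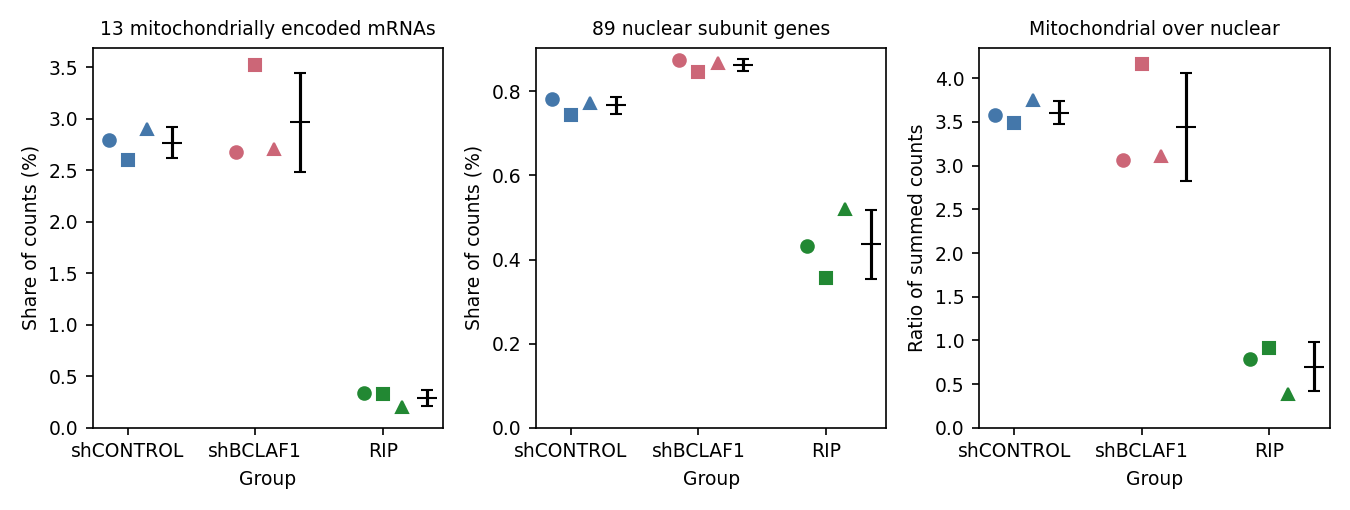
Share of all counts (%, y axes of the left and middle panels) taken by the 13 mitochondrially encoded mRNAs and by the 89 nuclear subunit genes, and the ratio of the summed counts (right), by group. Circles, squares and triangles are replicates 1, 2 and 3, and bars are the mean with SD (n = 3). RIP libraries are lowest in all panels, at ratios of 0.3833 to 0.9186.

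BCLAF1 knockdown asked which subunit mRNAs change when BCLAF1 is reduced. More nuclear subunit genes rose than fell, and nearly all changes were under 2-fold. With edgeR's quasi-likelihood test and Benjamini-Hochberg adjusted p below 0.05, 21 of 82 nuclear genes were higher (25.6%) and 4 were lower (4.88%). Over all 16961 genes tested, 15.5% were higher and 16.9% lower. With a log2 change of at least 1 as well, 0 were higher and 1 lower, against 1.81% and 2.29% of all genes. The median log2 fold change was 0.12 for the nuclear subunits and 0.02 for all genes. Groups did not overlap in CPM for 42.7% of the nuclear subunits, against 49.3% of all genes, so separation itself was no more frequent among them.

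The count of 21 depended on the libraries used. It was 9 without shCONTROL replicate 2, 11 without shCONTROL replicate 3, 9 without shBCLAF1 replicate 1 and 12 without shBCLAF1 replicate 2. It was 2 when all 9 libraries shared 1 fit, where all genes higher dropped from 2625 to 1129. The 2 were UQCRFS1 and COX6C, and the calls of NDUFB9 (adjusted p 0.075), UQCRC1 (0.0837), ATP5ME (0.0802), ATP5IF1 (0.139), COX4I1 (0.262) and COX6B1 (0.263) were among those lost there.

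Complex I takes electrons from NADH. Its 7 nuclear core subunits, which hold the flavin and iron-sulphur clusters, ranged from -0.19 to 0.17 in log2 fold change. Among these, edgeR's quasi-likelihood test gave 0 calls with a smallest adjusted p of 0.0936, 1 gene at an unadjusted p below 0.05, and DESeq2 also gave 0. Of 29 accessory subunits, which surround the core, 9 rose (31%) and 1 fell (3.45%), against 15.5% and 16.9% of all genes. NDUFB9 stood at 225, 220 and 241 CPM in shCONTROL and at 296, 296 and 343 in shBCLAF1. All 3 knockdown libraries were above all controls (log2 fold change 0.45, SE 0.07, adjusted p 0.0048). NDUFB7, on the intermembrane-space side, was at 40.9, 33.9 and 36.9 CPM and rose to 49.9, 45.1 and 54.1. NDUFA3 rose by 0.37 (log2), and rises of 0.16 to 0.43 were called for NDUFA2, NDUFA5, NDUFA12, NDUFA13, NDUFB4 and NDUFB5. The calls of NDUFA3 and NDUFB7 were lost in 2 and 3 of the 6 analyses that left out 1 library, with adjusted p up to 0.0563 and 0.0652.

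NDUFS4, an accessory subunit needed for a stable complex I, was the 1 complex I gene that fell. It stood at 28, 27.8 and 29.2 CPM in shCONTROL and at 21, 16.8 and 17.5 in shBCLAF1. The groups lay clear of each other (log2 fold change -0.62, SE 0.10, adjusted p 0.0048), and the call held in all 13 alternatives.

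In complex II, which oxidises succinate, SDHA, the flavoprotein, rose by 0.11 (log2, adjusted p 0.0414), and its call was lost in 5 of the 6 analyses that left out 1 library. SDHB, the iron-sulphur subunit, and the membrane anchors SDHC and SDHD did not pass the test. Complex III passes electrons from ubiquinol to cytochrome c, and 3 of its 9 genes rose (33.3%, against 15.5% of all genes). UQCRFS1, the Rieske iron-sulphur protein, stood at 101, 90.9 and 95.5 CPM in shCONTROL and at 125, 122 and 125 in shBCLAF1. This was the smallest adjusted p among the nuclear genes that rose (log2 fold change 0.37, SE 0.05, adjusted p 0.00193), and the call held in all 13 alternatives. UQCRC1, a core protein, rose by 0.31 and UQCRB, which lies at the ubiquinone site, by 0.20. The UQCRB call was lost in 5 of the 6 analyses that left out 1 library, with adjusted p up to 0.117.

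Complex IV, cytochrome c oxidase, had 4 nuclear genes higher (28.6%) and 1 lower (7.14%) of 14 tested, against 15.5% and 16.9% of all genes. COX6B1, which faces the intermembrane space, stood at 142, 127 and 133 CPM in shCONTROL and at 176, 168 and 178 in shBCLAF1, with no overlap (log2 fold change 0.38, SE 0.05, adjusted p 0.00259). COX6C rose by 0.33, COX7B by 0.30 and COX4I1, the most abundant nuclear subunit of this complex here, by 0.20. COX7A2L, which helps to join complexes III and IV into supercomplexes, was at -0.01 (SE 0.04).

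NDUFA4L2 showed the largest fold change of any nuclear subunit gene. It is a paralogue of the complex IV subunit NDUFA4 and is known as a target of hypoxia-inducible factor. It stood at 7.71, 10.5 and 9.43 CPM in shCONTROL and at 3.02, 2.86 and 3.03 in shBCLAF1. The knockdown libraries held 32.3% of the control level (log2 fold change -1.63, SE 0.14, adjusted p 6.09e-04), the 1 subunit gene past 2-fold with a call. NDUFA4 stood at 49.8, 44.3 and 50.4 CPM in shCONTROL and 60.5, 55.5 and 42.3 in shBCLAF1, where the groups overlapped. The ratio of NDUFA4L2 to NDUFA4 averaged 0.193 ± 0.0411 for shCONTROL and 0.0577 ± 0.0121 for shBCLAF1.

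Complex V had 4 genes higher (22.2%) and 2 lower (11.1%) of 18 tested, against 15.5% and 16.9% of all genes. ATP5IF1, the inhibitory factor that stops the enzyme from hydrolysing ATP, stood at 27.8, 26.8 and 30 CPM in shCONTROL and at 35.8, 34.7 and 37.6 in shBCLAF1. It rose by 0.36 on the log2 scale (SE 0.06, adjusted p 0.00795). ATP5ME, whose promoter is printed above, stood at 19.3, 17.7 and 19.3 CPM in shCONTROL and at 28.5, 23.2 and 28.4 in shBCLAF1. Among the nuclear genes that rose it had the largest log2 fold change, 0.51 (SE 0.10, adjusted p 0.00967). ATP5PD, of the peripheral stalk, rose by 0.24 and ATP5F1B by 0.17, and each lost its call when single libraries were left out (adjusted p up to 0.0664 and 0.0713). ATP5MK fell by 0.34 (adjusted p 0.0466), a call lost in 8 of 13 alternatives.

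The c ring, the rotor through which protons pass, is built from a single mature protein that 3 genes encode, ATP5MC1, ATP5MC2 and ATP5MC3. After knockdown they did not move together. ATP5MC2 stood at 185, 184 and 180 CPM in shCONTROL and at 162, 157 and 151 in shBCLAF1, and it fell (log2 fold change -0.23, SE 0.04, adjusted p 0.0068). ATP5MC3 stood at 171, 153 and 166 CPM in shCONTROL and at 201, 185 and 176 in shBCLAF1. These groups did not overlap, but the test was not passed (log2 fold change 0.20, SE 0.07, adjusted p 0.0594), although it was with total-count scaling (0.016) and with DESeq2 (0.0204). ATP5MC1 was at 0.01 (SE 0.10). The ratio of ATP5MC3 to ATP5MC2 was 0.922, 0.83 and 0.919 in shCONTROL and 1.24, 1.18 and 1.17 in shBCLAF1. This ratio was chosen after its values were seen.

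**Figure D2:**
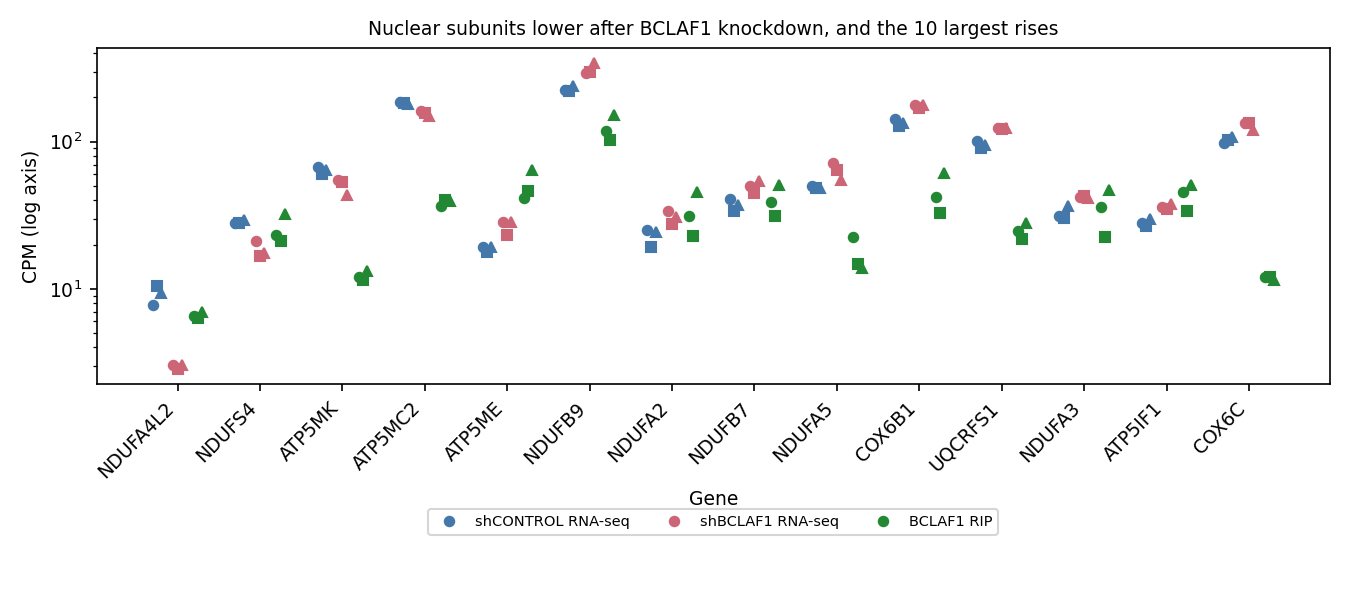
CPM (log axis) in each library for the 4 nuclear subunit genes lower after BCLAF1 knockdown, at left, and the 10 called rises with the largest log2 fold change. Blue, red and green are shCONTROL RNA-seq, shBCLAF1 RNA-seq and BCLAF1 RIP, and circles, squares and triangles are replicates 1, 2 and 3. NDUFA4L2 lies at 7.71 to 10.5 CPM in shCONTROL and at 2.86 to 3.03 in shBCLAF1.

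The 13 mitochondrially encoded mRNAs showed 1 call after knockdown, a rise (7.69%, against 15.5% of all genes). MT-ND3, a small complex I subunit, stood at 437, 420 and 484 CPM in shCONTROL and at 550, 667 and 640 in shBCLAF1. It rose without overlap (log2 fold change 0.47, SE 0.09, edgeR quasi-likelihood adjusted p 0.00939), and 1 fit over all 9 libraries did not call it (adjusted p 0.353). By the same test 0 of the 13 fell, with 0 lower at an unadjusted p below 0.05 and 0 by DESeq2. MT-ND2 stood at 1057, 965 and 1120 CPM against 1146, 1476 and 1184, also without overlap, at an adjusted p of 0.108 (0.0251 by DESeq2).

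The other mitochondrial mRNAs overlapped between the groups, and shBCLAF1 replicate 2 carried the highest value of each of them. The 7 MT-ND genes had log2 fold changes of 0.03 to 0.47 and the 3 MT-CO genes of -0.08 to -0.02. Under total-count scaling MT-CO3 was at 0.03, and MT-ND1 was at -0.10 without shBCLAF1 replicate 2. The median of the 13 was 0.20 with all libraries and 0.03 without shBCLAF1 replicate 2. Without that library MT-CYB, of complex III, was called lower (log2 fold change -0.21, edgeR quasi-likelihood adjusted p 0.0443), while MT-ND3 stayed higher (0.41, adjusted p 0.0329). The summed MT-ND counts per MT-CO count were 0.611, 0.636 and 0.678 in shCONTROL and 0.673, 0.777 and 0.845 in shBCLAF1, overlapping narrowly.

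In the RIP, the question was which subunit mRNAs are over- or under-represented beside BCLAF1 relative to the whole cell. Subunit mRNAs were mostly under-represented, the mitochondrially encoded ones most of all, and 9 nuclear ones were over-represented. Of 82 nuclear genes, 54 were lower (65.9%) and 9 higher (11%) at an edgeR quasi-likelihood adjusted p below 0.05, against 24.7% lower and 24.6% higher among all 16727 genes tested. With a log2 change of at least 1 as well, 41 were lower and 4 higher, against 13.6% and 11.1% of all genes. The median log2 fold change was -1.01 for nuclear subunits and -0.05 for all genes. Groups did not overlap for 80.5% of the nuclear subunits and 67.0% of all genes.

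The count of 9 enriched genes was 3 without shCONTROL replicate 1, 3 without shCONTROL replicate 2, 5 without shCONTROL replicate 3, and 4 with total-count scaling. That scaling moved the median of all genes from -0.05 to -0.17. The count of 54 lower genes ranged from 48 to 56 over the analyses that left out 1 library.

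All 13 mitochondrially encoded mRNAs were lower in the RIP, with no overlap and a median log2 fold change of -3.31. MT-CO1, the catalytic core of complex IV, stood at 7689, 7016 and 7318 CPM in shCONTROL and at 789, 695 and 626 in the RIP. MT-CO3 was at 4547, 4063 and 4541 against 353, 342 and 302. The smallest adjusted p of the 13 was that of MT-CO3 (log2 fold change -3.73, SE 0.14, edgeR quasi-likelihood adjusted p 1.42e-04). All 13 calls held in every alternative tried, and the median without RIP replicate 3 was -2.96.

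The size of the depletion varied along the mitochondrial genome. In gene order, the log2 fold changes were -3.79 for MT-ND1, -4.34 for MT-ND2, -3.39 for MT-CO1, -3.60 for MT-CO2, -3.31 for MT-ATP8, -3.91 for MT-ATP6 and -3.73 for MT-CO3. After MT-CO3 they were smaller: -1.81 for MT-ND3, -3.00 for MT-ND4L, -3.04 for MT-ND4, -1.82 for MT-ND5, -1.98 for MT-ND6 and -2.57 for MT-CYB. MT-ND2 (MT, bases 4470 to 5511 in RefSeq GRCh38.p14) kept 4.97% of its control level, and MT-ND3 (MT, bases 10059 to 10404) kept 28.6%. By their SEs, MT-CO1, MT-ATP8, MT-ND4L and MT-ND4 did not separate from one another. In RIP replicate 3, MT-ND4 was at 183.5 CPM beside a mean of 2772 in shCONTROL, and MT-CO1 at 626.5 beside 7341. In that library MT-ND4 was thus the more depleted of these genes. MT-ATP8 with MT-ATP6 and MT-ND4L with MT-ND4 overlap in sequence, so their values are not independent.

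MT-ND5 stood at 1827, 1750 and 2038 CPM in shCONTROL and at 577, 727 and 285 in the RIP. MT-ND3 stood at 119, 190 and 73.7 CPM in the RIP. RIP replicate 3 was the lowest RIP library for each of the 13 mRNAs. It differed from the other RIP libraries more in MT-ND2 (69.7, 63.7 and 22.9 CPM) than in MT-CO3. The ratio of summed MT-ND to MT-CO counts was 1.07, 1.52 and 0.674 in the RIP and 0.611 to 0.678 in shCONTROL, so replicates 1 and 2 lay above the control range and replicate 3 within it. The ratio of MT-ND5 to MT-CO3 averaged 0.427 ± 0.0237 for shCONTROL and 1.57 ± 0.594 for RIP libraries, higher in all 3 RIP libraries.

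**Figure D3:**
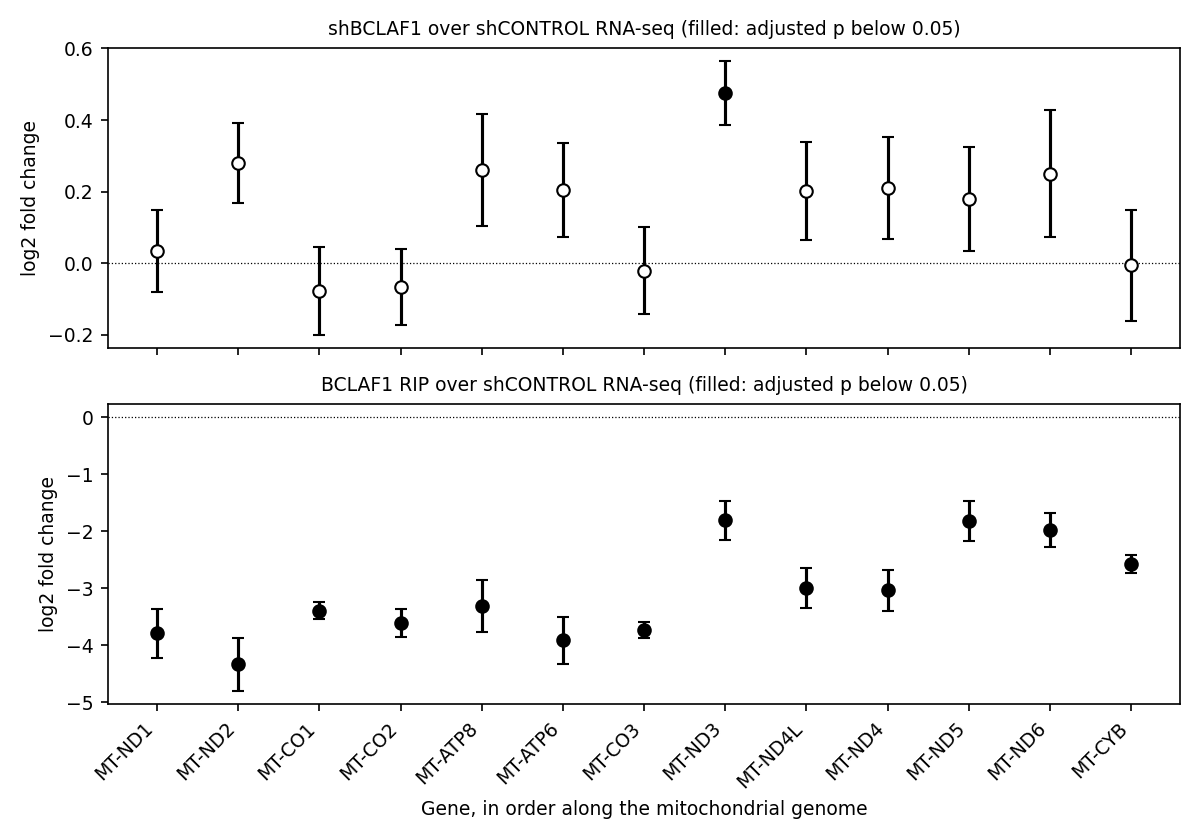
Log2 fold change (y axis, with SE) of the 13 mitochondrially encoded mRNAs in their order along the mitochondrial genome, after BCLAF1 knockdown (top) and in the BCLAF1 RIP (bottom). Filled points passed an adjusted p of 0.05. MT-ND3 is the filled point in the top panel, and all 13 are below 0 in the bottom panel, from -4.34 to -1.81.

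Per kilobase of gene, the order of levels in shCONTROL was led by MT-CO3 (5592 CPM per kb), MT-CO1 (4761) and MT-CO2 (3886), and MT-ND6, the gene on the other strand, was lowest at 855.4. The SDs were 355, 219, 292 and 64.8, so MT-CO3 lay above MT-CO1, and MT-CO1 above MT-CO2, by more than their spread. In the RIP the levels ran from 49.98 CPM per kb for MT-ND2 to 456.3 for MT-CO1. Whether the counting used strand is not given in the sources used here, so MT-ND6 and its antisense RNA may not be separated.

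The other RNAs of the mitochondrial genome were listed beside the mRNAs. Among the 21 mitochondrial tRNAs tested in the RIP, 14 were lower (66.7%, against 24.7% of all genes). Of the other 7, MT-TG, MT-TR, MT-TH, MT-TS2 and MT-TL2, which lie between MT-CO3 and MT-ND5, had log2 fold changes of 0.06 to 0.88. After knockdown MT-TG, next to MT-ND3, was the 1 tRNA called of 22 tested (0.59, adjusted p 0.0387). That is 4.55% higher, against 15.5% of all genes. The ribosomal RNA MT-RNR1 was lower in the RIP (-2.79, adjusted p 0.00132), where MT-RNR2 was at 0.51 (adjusted p 0.388). After knockdown MT-RNR2 was lower (-0.53, adjusted p 0.00554) and MT-RNR1 was at -0.49 (adjusted p 0.0977), in libraries from which ribosomal RNA had been removed. These p-values are from edgeR's quasi-likelihood test.

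Nuclear copies of mitochondrial genes share sequence with the mRNAs, so reads could be divided between them. The 368 copies in the table summed to 262.5 to 375 CPM in RNA-seq and 15.21 to 35.14 in the RIP. These sums were small beside the 25210 to 33360 and 2178 to 3645 CPM of the 13 mRNAs, but single genes differed. In shCONTROL, MTND2P28 was at 103 CPM beside 1047 for MT-ND2, and MTATP6P1 at 124 beside 1298 for MT-ATP6. MTCO1P12 was at 21.8 CPM beside 7341 for MT-CO1.

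Of the nuclear complexes, complex IV had the highest share of genes called lower in the RIP (92.9%, against 24.7% of all genes). The difference between complexes was not tested. By edgeR's quasi-likelihood test 13 of its 14 tested genes were lower and 0 higher, with 0 higher at an unadjusted p below 0.05 and 0 by DESeq2. Its share of all counts averaged 0.1365% ± 0.00513 for shCONTROL and 0.03325% ± 0.00619 for RIP libraries. COX8A, a small membrane subunit, stood at 160, 139 and 154 CPM in shCONTROL and at 11.7, 13.5 and 13.6 in the RIP. The RIP held 8.56% of its control level, with no overlap (log2 fold change -3.55, SE 0.12, adjusted p 1.42e-04). COX7A2 was at -3.31, NDUFA4 at -3.20, COX6C at -3.13 and COX7C at -2.58, all called. NDUFA4L2 was less depleted (-0.48, adjusted p 0.0432), and COX7A1, a muscle isoform near the detection limit, did not pass.

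In complex II the genes differed. SDHD, a membrane anchor, stood at 101, 85.3 and 88.1 CPM in shCONTROL and at 9.17, 4.81 and 8.44 in the RIP, the lowest log2 fold change of all nuclear subunits (-3.62, SE 0.26, adjusted p 2.96e-04). SDHB stood at 88.8, 81.9 and 86.5 against 76.4, 67.4 and 119, where the groups overlapped (0.02, SE 0.21). SDHC was at -1.59 and SDHA at -0.69, both called lower. The share of complex III averaged 0.09109% ± 0.00251 for shCONTROL and 0.08976% ± 0.0161 for RIP libraries. Within it, UQCRB and UQCRQ were higher, while UQCRFS1 (-1.96), UQCRC1 (-1.38), UQCRH (-1.80), UQCR11 and UQCRHL, a retrocopy nearly identical to UQCRH, were lower.

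In complex I, 6 of the 7 core genes were lower (85.7%), led by NDUFS7 (-2.03). Among the 29 accessory genes 15 were lower (51.7%) and 5 higher (17.2%), against 24.7% and 24.6% of all genes. NDUFS1, the largest core subunit, stood at 215, 207 and 213 CPM in shCONTROL and at 78, 78.9 and 84.5 in the RIP (log2 fold change -1.40, SE 0.08, adjusted p 2.19e-04). NDUFA1 was the most depleted at -3.06, and NDUFA11 was at -2.13. In complex V, 12 of 18 were lower (66.7%) and 2 higher (11.1%). ATP5F1B stood at 725, 672 and 700 CPM against 172, 166 and 210 (log2 fold change -1.94, SE 0.12, adjusted p 2.45e-04), and ATP5MK was at -2.41.

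The 3 c ring genes were again unequal, all lower in the RIP. ATP5MC1 kept 16.9% and ATP5MC2 21.1% of the control level, and ATP5MC3 67.1%. The ratio of ATP5MC3 to ATP5MC2 was 3.1, 2.01 and 3.41 in the RIP against 0.83 to 0.922 in shCONTROL. The ATP5MC3 call (log2 fold change -0.59, SE 0.19, adjusted p 0.0426) was lost when any 1 of the shCONTROL libraries or RIP replicate 1 was left out, with adjusted p of 0.0815 to 0.122.

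The 9 over-represented nuclear genes belonged to complexes I, III and V. NDUFB10, a complex I accessory subunit, stood at 58.4, 47.8 and 54.6 CPM in shCONTROL and at 179, 148 and 255 in the RIP. It had the largest rise (log2 fold change 1.85, SE 0.21, adjusted p 0.00108), with 48.3, 43.8 and 49.2 CPM after knockdown (adjusted p 0.167). ATP5ME was at 19.3, 17.7 and 19.3 CPM in shCONTROL and at 41.4, 46.5 and 64 in the RIP (1.43, SE 0.18, adjusted p 0.00137). UQCRB was at 232, 223 and 239 against 451, 469 and 588 (1.11, SE 0.13, adjusted p 0.00105). None of the RIP libraries overlapped the controls for these 3 genes, and their calls held in all 14 alternatives.

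NDUFA13, also known as GRIM-19, was at 118, 110 and 115 CPM in shCONTROL and at 229, 178 and 430 in the RIP, where replicate 3 stood apart (1.28, SE 0.32, adjusted p 0.0188). Its call was lost when any 1 shCONTROL library was left out (adjusted p 0.0609 to 0.0684). UQCRQ (0.82), ATP5IF1 (0.61), NDUFB8 (0.59), NDUFA12 (0.56) and NDUFA10 (0.41) completed the list. The UQCRQ call was lost in 5 of the 6 analyses that left out 1 library, that of ATP5IF1 in 3, and that of NDUFA10 in 2. In RefSeq, 3 of the 9 overlap another annotated gene (UQCRQ with GDF9, UQCRB with UQCRB-AS1, NDUFA10 with MIR4786), against 20 of the 53 lower genes with a RefSeq entry. The read-through gene NDUFC2-KCTD14 shares sequence with NDUFC2 and was listed at 0 in RIP replicate 1 beside 4.03 and 6.28 CPM in the other RIP libraries, so it is uncertain.

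**Figure D4:**
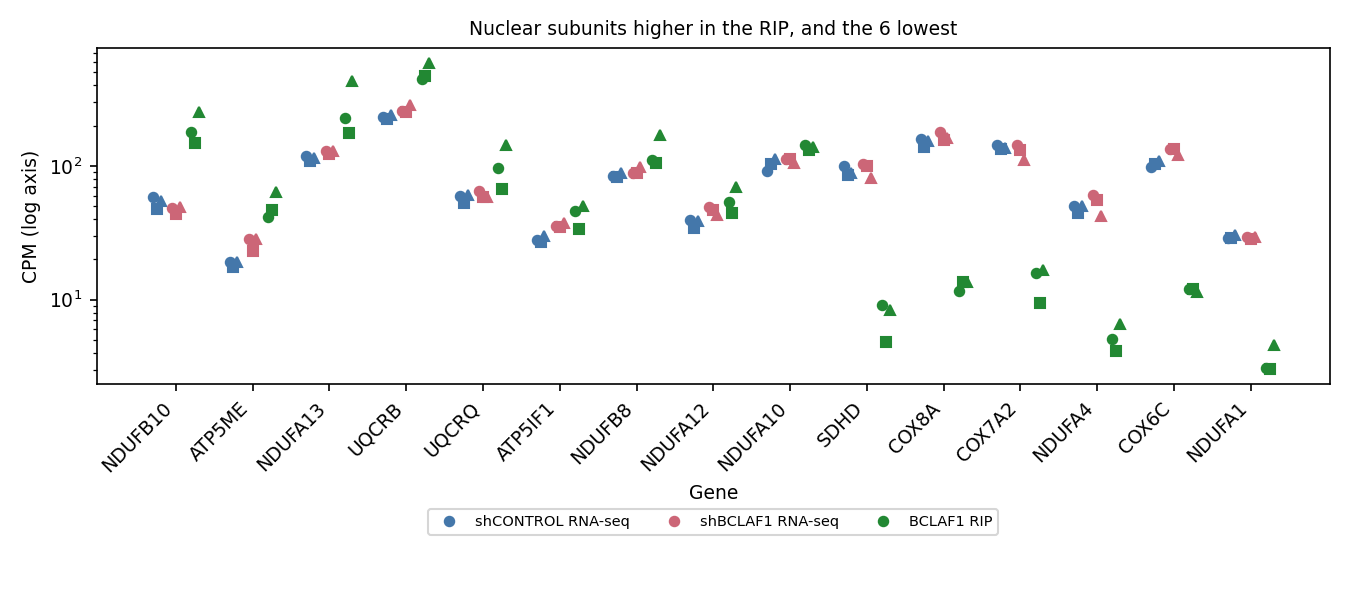
CPM (log axis) in each library for the 9 nuclear subunit genes higher in the RIP, in order of log2 fold change, and the 6 with the lowest. Blue, red and green are shCONTROL RNA-seq, shBCLAF1 RNA-seq and BCLAF1 RIP, and circles, squares and triangles are replicates 1, 2 and 3. NDUFB10 reaches 148 to 255 CPM in the RIP, while SDHD is at 4.81 to 9.17.

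The knockdown and the RIP share the shCONTROL libraries, so the calls are set side by side without a test. Of the 21 nuclear genes higher after knockdown, 5 were higher in the RIP (NDUFA12, NDUFA13, UQCRB, ATP5IF1 and ATP5ME), 12 were lower and 4 were not called. For reference, 11% of the 82 nuclear genes tested were higher in the RIP and 65.9% lower. Among all genes 24.6% were higher and 24.7% lower. Of the 4 lower after knockdown, NDUFA4L2, ATP5MC2 and ATP5MK were lower in the RIP and NDUFS4 was not called there (-0.16, SE 0.17). Across 81 nuclear subunit genes, Spearman's rho between the RIP log2 fold change and the genomic span of the gene was -0.0274. Over 13873 genes it was 0.202. Both are across genes of the same 6 libraries, and genes are not independent replicates.

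**Figure D5:**
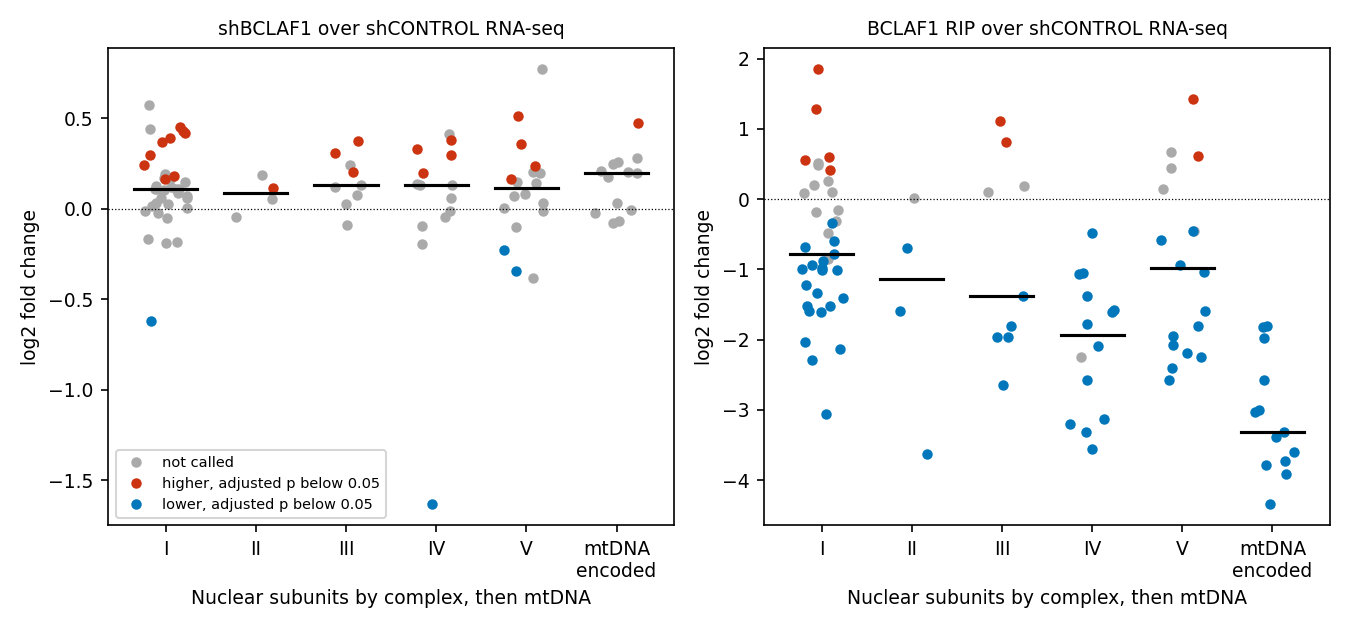
Log2 fold change (y axis) of each tested subunit gene, nuclear genes by complex and mitochondrially encoded genes at right, after BCLAF1 knockdown (left) and in the BCLAF1 RIP (right, another scale). Red and blue points passed an adjusted p of 0.05, grey points did not, and lines are medians. In the RIP the median is -1.01 over nuclear genes and -3.31 over mitochondrially encoded genes.

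Related genes from lists outside the symbol rule were counted with the same edgeR quasi-likelihood calls. Of 9 subunits and electron carriers that the symbols miss, only CYCS, which encodes cytochrome c, rose after knockdown (log2 fold change 0.24, adjusted p 0.0201). That is 11.1% higher, against 15.5% of all genes. In the RIP 8 of the 9 were lower (88.9%, against 24.7% of all genes), led by NDUFAB1, the mitochondrial acyl carrier protein (-2.83). ETFB, of the electron transfer flavoprotein, was higher (0.45, adjusted p 0.0166), which is 11.1% against 24.6%. Of 48 assembly factors, 8 rose (16.7%) and 7 fell (14.6%) after knockdown, shares near those of all genes (15.5% and 16.9%). COX15, for haem a synthesis, was at -0.47 (adjusted p 5.26e-04), and NDUFAF5, a complex I assembly factor, was at 0.69 (adjusted p 0.00101). In the RIP 9 of the 48 were higher (18.8%) and 20 lower (41.7%), against 24.6% and 24.7% of all genes. COX17, a copper chaperone of complex IV, was at 1.63 (adjusted p 8.95e-04).

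Of 31 genes of mitochondrial transcription, RNA processing and translation, 4 rose (12.9%) and 6 fell (19.4%) after knockdown, close to the shares of all genes. Those that fell included MTERF3 (-0.73), MTIF2, a translation initiation factor (-0.54), and LRPPRC, which stabilises mitochondrial mRNAs (-0.33, adjusted p 0.0135). In the RIP 7 were higher (22.6%) and 10 lower (32.3%), against 24.6% and 24.7% of all genes. Of 13 genes of mitochondrial DNA maintenance, 2 rose after knockdown (15.4%, against 15.5% of all genes) and 3 fell (23.1%, against 16.9%). The polymerase POLG was among those that rose (0.42, edgeR quasi-likelihood adjusted p 9.56e-04). In the RIP 4 were higher (30.8%) and 3 lower (23.1%), against 24.6% and 24.7% of all genes.

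Of 13 genes of the tricarboxylic acid cycle, which feeds complexes I and II, those that rose after knockdown included DLD (0.28) and SUCLA2 (0.26), and SUCLG2 fell (-0.33). In the RIP 2 of the 13 were higher (15.4%) and 8 lower (61.5%), against 24.6% and 24.7% of all genes. Of 17 glycolysis genes, 7 fell after knockdown (41.2%, against 16.9% of all genes) and PKM rose (0.32), which is 5.88% against 15.5%. In the RIP 2 of the 17 were higher (11.8%) and 7 lower (41.2%), against 24.6% and 24.7% of all genes. Among those that fell after knockdown, HK2, which phosphorylates glucose, was at -0.45 (adjusted p 5.2e-04) and LDHB, a lactate dehydrogenase subunit, at -0.34 (adjusted p 0.00117). Of 10 regulators of mitochondrial biogenesis tested after knockdown, 1 rose and 2 fell (10% and 20%, against 15.5% and 16.9% of all genes). MYC (-0.88, adjusted p 9.73e-05) and CREB1 (-0.27) fell, and PPARGC1B, a coactivator, rose (0.40, adjusted p 0.00167). NRF1 was at 0.08 and GABPA at 0.05 after knockdown, neither called. In the RIP 3 of the 10 were higher (30%) and 1 lower (10%), against 24.6% and 24.7% of all genes. The 3 were CREB1, GABPB1 and NRF1. These adjusted p-values are from edgeR's quasi-likelihood test over all genes.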

How the data were processed

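Total RNA of MOLM-13 cells was sequenced after ribosomal RNA removal, in stranded paired-end libraries, per the labels' protocols. The deposited values are estimated counts for each gene in 1 table, which the authors made without normalization as far as its values show. The submitters' processing notes name STAR 2.7.11b, StringTie 2.2.3 and hg38, without roles. Values were whole numbers, used without further rounding. Another 1 entry named no gene, held 2.18% to 3.75% of the counts in 8 libraries, and was left out. Such counts derive from an estimate, so the floor of 3 counts covers counting error only.

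Each comparison was fitted on its own 6 libraries with edgeR 4.0.16 in R 4.3.3 (filterByExpr, TMM, quasi-likelihood F-test, Benjamini-Hochberg over all genes tested, threshold 0.05, prior count 0.125). The SE is the fitted coefficient over the square root of F. CPM values use TMM factors over all 9 libraries. The code was tested on simulated data. All samples carry the same batch label. Replicates correlated across 16874 genes at 0.942 to 0.943 (shCONTROL), 0.938 to 0.942 (shBCLAF1) and 0.921 to 0.93 (RIP).

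The members and lists were chosen with earlier results of these data known. Genes were named by rule: every mitochondrial mRNA, up to 3 higher and 3 lower per complex by adjusted p with groups that do not overlap, the most abundant of each complex, the c ring genes, COX7A2L, ATP5IF1, read-through genes and BCLAF1. Other members given with values were chosen after those were seen. Alternatives were other scalings, no filter, DESeq2 1.42.0, a fit of all 9 libraries, the replicate number as a block, a minimum log2 change of 1, and each library left out. All columns of sample values were used. Some genes of the lists are not reported here.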

Additional observations from a re-analysis of the deposited data

How the results depend on the processing

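Median log2 fold changes of the nuclear and mitochondrial subunits kept their sign in every alternative. They ran from 0.10 to 0.17 (nuclear) and 0.03 to 0.30 (mitochondrial) after knockdown, and from -1.16 to -0.92 and from -3.44 to -2.96 in the RIP. The 13 mitochondrial genes lower in the RIP stayed 13 throughout. After knockdown, the 21 nuclear genes higher became 2 in the fit of all 9 libraries and 0 with a minimum log2 change of 1, and 9 to 24 when a library was left out. The 4 lower became 1 with the minimum change, and 3 to 4 when a library was left out. The 1 mitochondrial gene higher became 2 with DESeq2, 0 in the fit of all 9 libraries and 0 with the minimum change, and the 0 lower became 1 when a library was left out (0 to 1). All genes higher went from 2625 to 1129 in the fit of all 9 libraries and 307 with the minimum change, and all genes lower from 2859 to 1318 and 389. In the RIP, the 9 nuclear genes higher became 4 with total counts and 4 with the minimum change, and 3 to 11 when a library was left out. All genes higher went from 4107 to 1853 with the minimum change, and lower from 4124 to 2281. The cause was not tested.

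Signs turned after knockdown for genes near 0, and for NDUFC2-KCTD14, which was at 0.4392 with all libraries. The latter stood at 1.74, 1.90 and 6.33 CPM in shBCLAF1. With total counts, MT-CYB was at 0.0449, MT-CO3 at 0.0289 and COX7A2L at 0.0372, and with no filter ATP5MC1 was at -0.0065. With 1 library left out, MT-ND1 ran from -0.0997 to 0.0985, MT-CYB from -0.2107 to 0.0894, MT-CO1 from -0.2181 to 0.0307, MT-CO3 from -0.1408 to 0.0923, ATP5MC1 from -0.0611 to 0.0851, COX7A2L from -0.0308 to 0.0246 and NDUFC2-KCTD14 from -0.4247 to 0.7473. In the RIP NDUFC2-KCTD14 was at -0.4066 with the replicate block and ran from -0.267 to 1.0702 with 1 library left out. Same-numbered libraries correlated at 0.0212 to 0.0772 in their deviations in the knockdown, weakly but each best with its own number. In the RIP the values were -0.0252 to 0.0147. The main fits did not take the numbers as pairs, and whether the knockdown libraries were paired was not tested. With the replicate block, 18 nuclear genes were higher and 3 lower after knockdown, and the calls of SDHA (adjusted p 0.079) and ATP5MK (0.0637), and of NDUFA10 in the RIP (0.0534), were lost. The depth limits low genes such as COX7A1 and UQCRHL.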
